A study of Mus musculus with 4 samples.

Results

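The cluster of miR-143 and miR-145 was followed as every row of the deposited counts named miR-143 or miR-145, with or without the star that marks a passenger strand. The rule found 3 rows, mmu-miR-143, mmu-miR-145 and mmu-miR-145*, written below without their mouse prefix, out of 508 microRNAs, and all 3 rows were present in all 4 libraries. The other arm of the miR-143 hairpin was not analysed here. The rows come from small RNA sequencing of mouse embryonic fibroblasts (MEFs), which are cultured straight from embryos, with 1 library per group. The groups are shLuc.1309;ROSA-rtTA cells with doxycycline (rtTA +dox), the same genotype without it (rtTA -dox), shLuc.1309 cells with doxycycline (no rtTA +dox) and shLuc.1309 cells without it (no rtTA -dox). All groups, controls included, carry shLuc.1309, a short hairpin RNA (shRNA) against luciferase, which mice do not encode. rtTA is a transactivator that binds doxycycline (dox) and then switches on tetracycline-responsive promoters, and ROSA stands for the broadly active Rosa26 locus. The sources used here do not give the dose and length of the dox treatment, the passage or the number of embryos behind a library.

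miR-143 and miR-145 are cut from neighbouring hairpins of the same primary transcript, but their seeds differ, so they bind different target sites. The pair is best known from smooth muscle, where serum response factor and its partner myocardin switch it on. There miR-145 holds down Klf4 and other factors of the proliferative state, miR-143 acts on Elk1, and both favour the contractile state. Fibroblasts and other mesenchymal cells also make the pair, epithelial and blood cells little of it.

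Mature miR-143 is 21 bases long with 28.6% G, miR-145 is 23 bases long with 17.4% G, and miR-145* is 22 bases long with 18.2% G. The median G content over the 372 microRNAs that were compared was 23.8%, with quartiles at 18.2% and 31.8%, so the 2 miR-145 strands were poor in G and miR-143 lay within the middle range. No other listed microRNA had the seed (bases 2 to 8) of any of the 3, and none lay within 2 mismatches of them. G content is given because the ratios of the induced library moved with it. Shown here are the 5 microRNAs whose pattern over the 4 libraries lay nearest to miR-143 and then the 5 nearest to miR-145, 5′ to 3′ as DNA letters, with each G in capitals.
miR-181a-1*: accatcGaccGttGattGtacc
miR-30e: tGtaaacatccttGactGGaaG
miR-130a: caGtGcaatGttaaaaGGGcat
miR-126-3p: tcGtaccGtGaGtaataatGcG
let-7i: tGaGGtaGtaGtttGtGctGtt
miR-192: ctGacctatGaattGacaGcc
miR-29a: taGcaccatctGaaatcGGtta
miR-19a: tGtGcaaatctatGcaaaactGa
miR-33*: caatGtttccacaGtGcatcac
let-7g*: actGtacaGGccactGccttGc

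Each of these 10 sequences matched a single mature microRNA of RefSeq on build GRCm38.p6. Of the neighbours of miR-143, miR-181a-1* lies at chr1:137966508-137966529 (plus strand), miR-30e at chr4:120772660-120772681 (minus strand) in an intron of Nfyc, and miR-130a at chr2:84741116-84741137 (minus strand) outside other annotated genes. miR-126-3p lies at chr2:26591402-26591423 (plus strand) within Egfl7, and let-7i at chr10:122985698-122985719 (minus strand). Of the neighbours of miR-145, miR-192 lies at chr19:6264857-6264877 (plus strand) and miR-29a at chr6:31062673-31062694 (minus strand), both outside other annotated genes. miR-19a lies at chr14:115044048-115044070 (plus strand) in an exon of Mir17hg, miR-33* at chr15:82198167-82198188 (plus strand) in an intron of Srebf2, and let-7g* at chr9:106178902-106178923 (plus strand) in an intron of Wdr82.

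The libraries held 7690978 counts (rtTA +dox), 8780954 (rtTA -dox), 6545093 (no rtTA +dox) and 6383594 (no rtTA -dox), the shRNA included. Levels are given as counts per 1000000 endogenous microRNA counts (CPM), without the shRNA. The shRNA itself stood at 24386 CPM in rtTA +dox cells, against 786 CPM in rtTA -dox, 774 CPM in no rtTA +dox and 726 CPM in no rtTA -dox cells. The 14 listed rows of a mesenchymal list, among them miR-21, miR-22, miR-199b and miR-214, summed to between 359897 and 390969 CPM per library. Rows of the epithelial list, with miR-200c and miR-205, summed to between 5.49 and 20.6 CPM, those of the blood list to between 52.6 and 82.4 CPM, and those of the pluripotent list to at most 1.20 CPM. The endothelial list summed to between 119.6 and 175 CPM, and the liver marker miR-122 stood between 2.51 and 3.99 CPM. The neuronal list summed to 662 CPM in rtTA +dox, 539 CPM in rtTA -dox, 565 CPM in no rtTA +dox and 431 CPM in no rtTA -dox cells. The skeletal muscle list, most of it miR-206, summed to 592 CPM in rtTA +dox, 382 CPM in rtTA -dox, 247 CPM in no rtTA +dox and 262 CPM in no rtTA -dox cells, so both lists were highest in the library where miR-143 was highest. The other skeletal muscle rows past the floor were not highest there: miR-1 had 7.86 CPM in rtTA +dox cells, against 16.6 CPM in rtTA -dox cells, and miR-133a had 6.66 CPM in rtTA +dox cells, against 9.004 CPM in rtTA -dox cells. Of the neuronal rows past the floor, miR-129-5p and miR-124 were highest in rtTA +dox cells, with miR-129-5p at 325 CPM, against 212 CPM in rtTA -dox cells. miR-9 was lower in rtTA +dox than in no rtTA +dox cells (log2 ratio -0.15), and miR-9* was slightly lower than in rtTA -dox cells (-0.01). The part of skeletal muscle or neuronal cells in the miR-143 values was not tested.

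miR-143, the strand that acts on Elk1, was the third most abundant microRNA in each library. It stood at 94902 CPM in rtTA +dox cells, at 86818 CPM in rtTA -dox cells, at 93570.1 CPM in no rtTA +dox cells and at 78272 CPM in no rtTA -dox cells. These rest on between 499292 and 761747 counts, and the exact 95% intervals, which cover counting error only, did not overlap between any of the 4 libraries. Both dox libraries thus lay above both libraries without dox. The highest library was 1.21-fold above the lowest, and 31 of the 372 compared microRNAs varied less. The median of this range over all 372 was 1.58-fold. In bulk samples, fewer cells that make a microRNA and less of it per cell cannot be told apart.

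miR-145, the strand that holds down Klf4, ranked between 51 and 66 and stood apart from miR-143 in which library was lowest. Its level was 1791 CPM in rtTA +dox cells, 2439 CPM in rtTA -dox cells, 2366 CPM in no rtTA +dox cells and 2182 CPM in no rtTA -dox cells, on 13450 to 21400 counts. The induced library was the lowest, whereas for miR-143 it was the highest. The counting intervals of rtTA -dox (2406 to 2472 CPM) and no rtTA +dox (2329 to 2404 CPM) lay side by side, and the other libraries were farther apart. The highest library was 1.36-fold above the lowest, and 90 of 372 microRNAs varied less.

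miR-145*, the passenger strand of the miR-145 hairpin, varied most of the 3. It stood at 661 CPM in rtTA +dox cells, 850.2 CPM in rtTA -dox cells, 1120.0 CPM in no rtTA +dox cells and 673 CPM in no rtTA -dox cells, on 4293 to 7460 counts. The library with dox and without rtTA stood above the rest. The intervals of rtTA +dox (643 to 680.1 CPM) and no rtTA -dox (653 to 693 CPM) overlapped, so these libraries did not differ beyond counting error. The highest library was 1.69-fold above the lowest, a wider range than that of 229 of the 372 microRNAs.

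**Figure D1:**
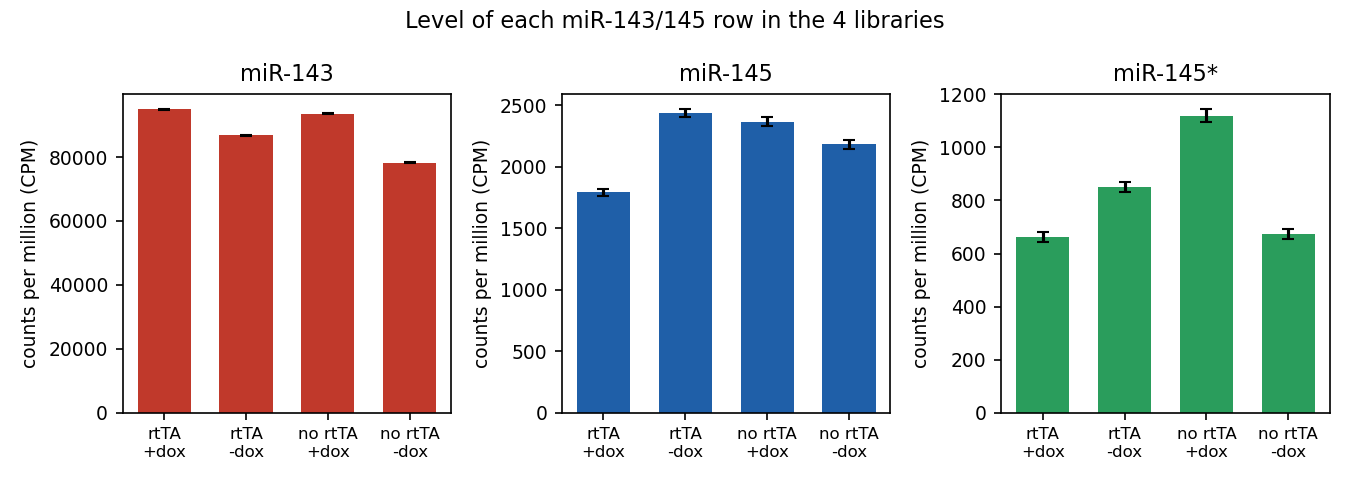
Counts per 1000000 endogenous microRNA counts (CPM, y axis, from 0) of miR-143, miR-145 and miR-145* in the 4 libraries (x axis), with exact 95% counting intervals. miR-143 is highest and miR-145 lowest in the rtTA +dox library, and miR-145* is highest, at 1120.0 CPM, with dox and without rtTA.

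Ratios between libraries were read against the 372 microRNAs past the floor, which is a mean of 3.14 CPM, equal to 20 counts in the shallowest library. A microRNA was called when it was at least 2-fold apart (1 on the log2 scale) with a 95% counting interval that excluded equality. None of the 12 ratios of the 3 rows was called, in the 4 comparisons, under each library scaling, and after subtraction of the trends on base composition. The groups hold 1 library each, so that a ratio compares a pair of libraries, has no replicate spread to be set against and does not speak for the condition. Under a 1.5-fold rule 2 of the 12 ratios were called, both of miR-145* and both resting on the no rtTA +dox library. They were higher with dox without rtTA, as were 7.53% of all microRNAs, and lower with rtTA under dox, as were 24.2%. Neither passed this rule after subtraction of a trend on G, C and A content together, an alternative added after seeing the data.

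Dox in rtTA cells asks whether an expressed shRNA, which needs the same processing machinery, goes with a changed microRNA pool. The members of the cluster lay on opposite sides of equality. miR-143 had 94902 CPM in rtTA +dox cells, against 86818 CPM in rtTA -dox cells, a log2 ratio of 0.13 (95% interval 0.12 to 0.13). miR-145 had 1791 CPM in rtTA +dox cells, against 2439 CPM in rtTA -dox cells, a log2 ratio of -0.45 (-0.48 to -0.41). Its passenger strand had 661 CPM in rtTA +dox cells, against 850.2 CPM in rtTA -dox cells, a log2 ratio of -0.36 (-0.41 to -0.31). Over all 372 microRNAs 1.34% were called higher and 8.6% lower, and the quartiles of the log2 ratio were -0.45 and 0.29. All 3 rows thus lay between the quartiles: 155 other microRNAs were at least as far from equality as miR-145, 186 as far as miR-145* and 305 as far as miR-143.

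In this comparison the log2 ratio moved with G content, by 0.43 for each 10 percentage points of G (Pearson correlation 0.72 across 372 microRNAs of the same 2 libraries, which are not independent replicates). The median log2 ratio was -0.57 over the 118 microRNAs under 20% G and 0.14 over the 117 microRNAs with 25% to 35% G, the classes that hold the miR-145 strands and miR-143. At the G content of each row, the linear trend had the value 0.03 for miR-143, -0.44 for miR-145 and -0.41 for miR-145*. miR-143 thus lay 0.10 above the trend and miR-145* 0.05 above it, while miR-145 lay on it. With the slope removed and the mean of all ratios (-0.11) kept, the log2 ratio was -0.01 for miR-143, -0.11 for miR-145 and -0.06 for miR-145*, so the sign of miR-143 comes from that mean. Values with a trend subtracted keep the mean in this way throughout.

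**Figure D2:**
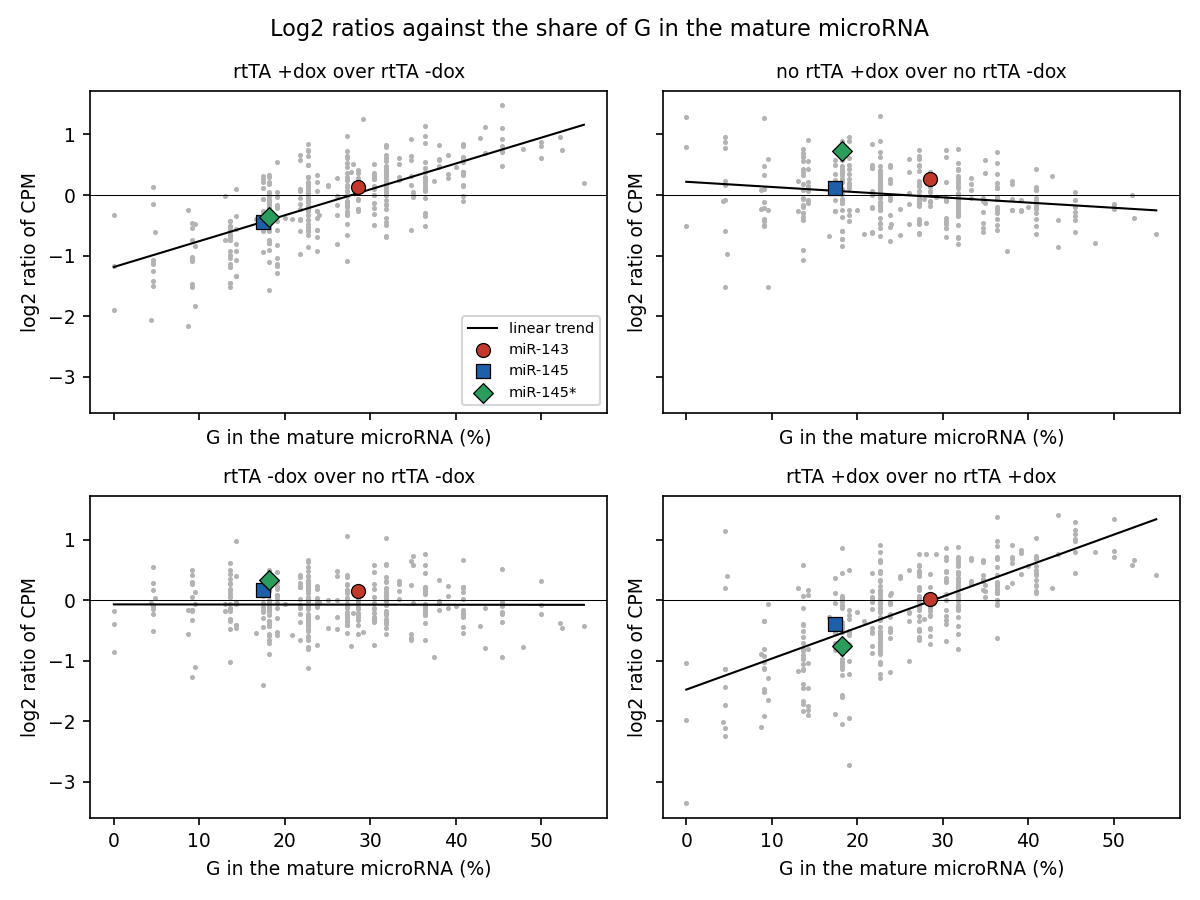
Log2 ratio of CPM (y axis) against the percentage of G in the mature microRNA (x axis) for the 372 compared microRNAs (grey) in the 4 comparisons, with the linear trend and the 3 rows of the cluster. In rtTA +dox over rtTA -dox the 3 rows lie near the trend, and in no rtTA +dox over no rtTA -dox miR-145* lies above it.

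Dox without rtTA addresses the drug alone, since the shRNA stays low. All 3 rows had more CPM with dox, and miR-145* most. miR-143 had 93570.1 CPM in no rtTA +dox cells, against 78272 CPM in no rtTA -dox cells, a log2 ratio of 0.26 (0.25 to 0.26). miR-145 had 2366 CPM in no rtTA +dox cells, against 2182 CPM in no rtTA -dox cells, a log2 ratio of 0.12 (0.08 to 0.15). The passenger strand had 1120.0 CPM in no rtTA +dox cells, against 673 CPM in no rtTA -dox cells, a log2 ratio of 0.73 (0.68 to 0.79), or 1.66-fold. It ranked 19 of 372 from the highest ratio. Under the 2-fold rule 0.806% of all microRNAs were called higher and 0.806% lower. Under a 1.5-fold rule miR-145* was called higher, as were 7.53% of all microRNAs, while 7.8% were called lower. G content had little weight here (correlation -0.20), and the ratio of miR-145* was 0.67 with the trend subtracted. With the trend on G, C and A together it was 0.53, under 1.5-fold.

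The dox ratios with and without rtTA were then set against each other. For miR-143 the difference of the log2 ratios was -0.13 (95% counting interval -0.14 to -0.12), with both ratios above 0. For miR-145 the ratios had opposite signs and differed by -0.56 (-0.61 to -0.52). For miR-145* they also had opposite signs and differed by -1.10 (-1.17 to -1.02). Differences at least this far from 0 were found in 319, 171 and 55 other microRNAs, in that order of the rows, and the median over all 372 was -0.05. With the G trends subtracted from both ratios the differences were -0.30 for miR-143, -0.16 for miR-145 and -0.73 for miR-145*. The difference thus stayed largest in the passenger strand among the 3.

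rtTA without dox addresses the transactivator alone, with the shRNA at a like low level in both libraries. All 3 rows lay above equality. miR-143 had 86818 CPM in rtTA -dox cells, against 78272 CPM in no rtTA -dox cells (log2 ratio 0.15, 0.14 to 0.15). miR-145 had 2439 CPM in rtTA -dox cells, against 2182 CPM in no rtTA -dox cells (0.16, 0.13 to 0.19), so that both guide strands differed by nearly the same factor. miR-145* had 850.2 CPM in rtTA -dox cells, against 673 CPM in no rtTA -dox cells (0.34, 0.28 to 0.39). Of all microRNAs 0.538% were called higher and 1.34% lower, with a median log2 ratio of -0.07, and 256 others were at least as far from equality as miR-143.

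rtTA with dox sets the induced library against dox-treated cells without the transactivator. miR-143 was nearly level, with 94902 CPM in rtTA +dox cells, against 93570.1 CPM in no rtTA +dox cells (log2 ratio 0.02, 0.015 to 0.025), and 361 other microRNAs were at least as far from equality. Its sign turned with the scaling: with the shRNA kept in the library total the ratio was -0.01. miR-145 had 1791 CPM in rtTA +dox cells, against 2366 CPM in no rtTA +dox cells (-0.40, -0.43 to -0.37). miR-145* had 661 CPM in rtTA +dox cells, against 1120.0 CPM in no rtTA +dox cells (-0.76, -0.81 to -0.71), 1.69-fold lower with rtTA. Under the 2-fold rule 2.42% of all microRNAs were called higher and 14.2% lower. miR-145* passed only the 1.5-fold rule, as lower, together with 24.2% of all microRNAs, while 13.7% were called higher. G content again moved with the ratios (correlation 0.69), and with the trend subtracted and the mean of -0.18 kept, miR-143 was at -0.15, miR-145 at 0.0025 and miR-145* at -0.40, no longer past 1.5-fold. Against the trend itself, miR-143 lay 0.04 above it, miR-145 0.19 above it and miR-145* 0.21 below it. With the trend on G, C and A subtracted and the mean kept, miR-145* was at -0.21. This comparison shares a library with dox in rtTA cells and another with dox without rtTA.

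**Figure D3:**
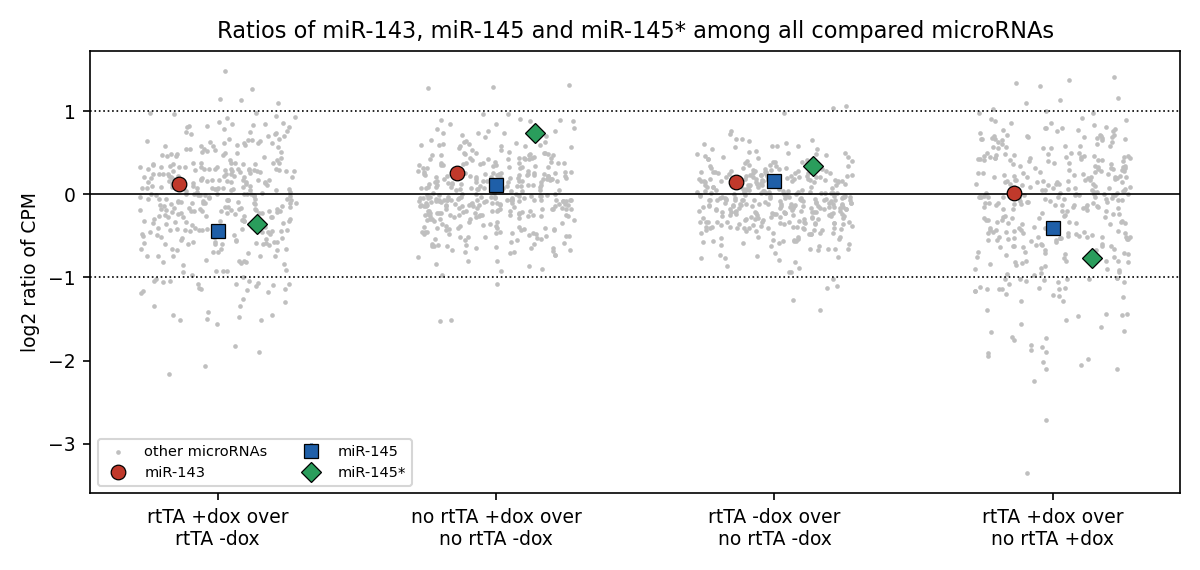
Log2 ratios of CPM (y axis) in the 4 comparisons (x axis) for the 372 compared microRNAs (grey points, spread sideways for clarity) and the 3 rows of the cluster with 95% counting intervals, most of them smaller than the symbols. Dotted lines mark 2-fold, and all 12 ratios of the cluster lie between them.

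A fit over all 4 libraries with additive terms for dox and rtTA leaves 1 residual degree of freedom and treats dox as acting alike with and without rtTA. edgeR's quasi-likelihood test gave miR-143 a log2 fold change of 0.21 for dox (adjusted p = 0.999, Benjamini-Hochberg) and 0.14 for rtTA (adjusted p = 0.961). For miR-145 the fold changes were -0.15 for dox and -0.07 for rtTA, and for miR-145* 0.20 and -0.16, with edgeR adjusted p between 0.997 and 0.999. Of 372 microRNAs edgeR called 0 for either term, with 11 (dox) and 25 (rtTA) at an unadjusted p under 0.05, and DESeq2 also called 0.

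miR-143 and miR-145 share a primary transcript, and their ratio was taken within each library, which needs no scaling between libraries. miR-143 held 53.0 counts for each count of miR-145 in rtTA +dox cells (95% interval 52.1 to 53.9), 35.6 in rtTA -dox cells (35.1 to 36.1), 39.5 in no rtTA +dox cells (38.9 to 40.2) and 35.9 in no rtTA -dox cells (35.3 to 36.5). The libraries without dox did not differ beyond counting error, and the induced library was the highest. With both miR-145 strands summed the ratios were 38.7, 26.4, 26.8 and 27.4 in the same libraries, and the induced library was again the highest. On the log2 scale the ratio of the guide strands changed by 0.57 with dox in rtTA cells (0.54 to 0.61) and by 0.14 with dox without rtTA (0.11 to 0.17). It changed by -0.01 with rtTA without dox (-0.04 to 0.02) and by 0.42 with rtTA under dox (0.39 to 0.46).

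Other pairs of cluster neighbours give a scale for this ratio, since no library has a replicate. Over the 4 libraries the miR-143 to miR-145 ratio ranged over 1.49-fold, which ranked 10 of 18 pairs, against a median of 1.51-fold over the other 17. The widest were miR-193 to miR-365 (2.41-fold) and miR-15b to miR-16 (2.41-fold), and the narrowest miR-182 to miR-183 (1.18-fold). Mature miR-365, miR-16, miR-29b and miR-199a-5p can come from more than a single locus, so their pairs mix transcripts. With dox in rtTA cells, 5 of the other 17 pairs changed at least as far as miR-143 to miR-145. Across those 17 pairs of the same 2 libraries the change had a correlation of 0.75 with the difference in G content between the pair's members. miR-143 exceeds miR-145 by 11.2 percentage points of G. miR-18a and miR-19a, both from Mir17hg, differ by 13.0 points, and their ratio changed by 0.54. Other pairs with wide G differences changed by unlike amounts. The ratio of miR-193 to miR-365 (13.6 points) changed by 1.27 and that of miR-379 to miR-411 (9.5 points) by 0.06. For miR-322 to miR-503 (-12.1 points) the change was -0.84, and for miR-199a-5p to miR-214 (-14.4 points) -0.13. With the G trend subtracted, the change of miR-143 to miR-145 with dox in rtTA cells was 0.10, and with the trend on G, C and A it was 0.21. The change with dox without rtTA was then 0.24 (G) and 0.12 (G, C and A), so which of them was larger depended on the trend.

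**Figure D4:**
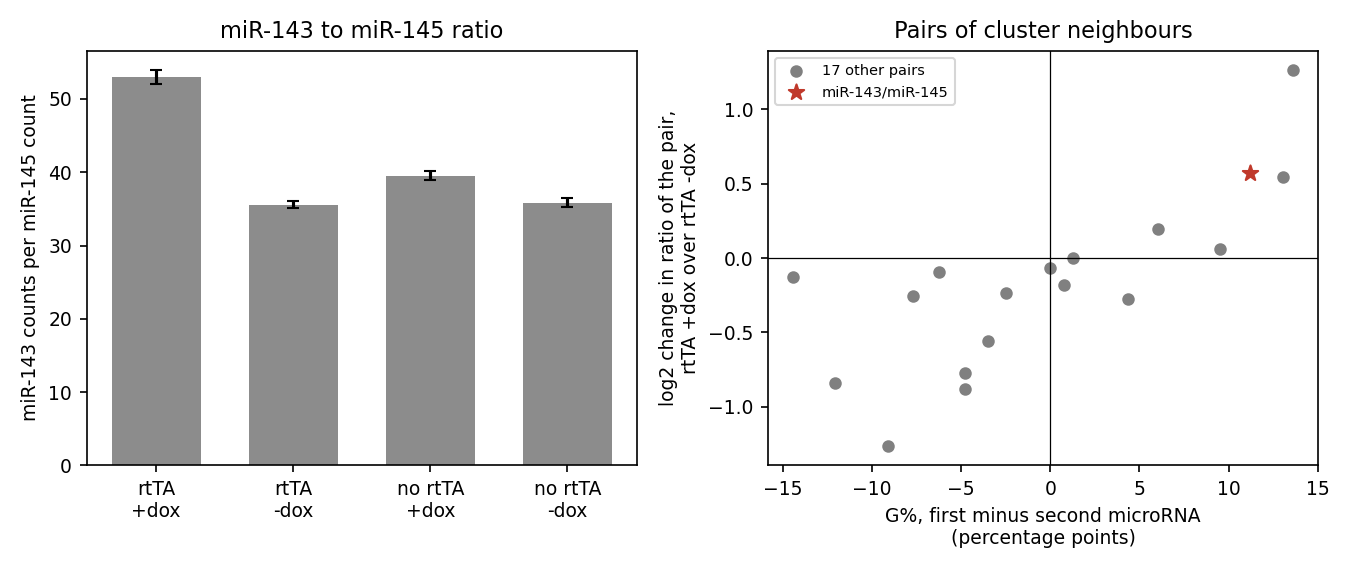
Left, counts of miR-143 per count of miR-145 (y axis, from 0) in the 4 libraries (x axis) with 95% counting intervals, highest in rtTA +dox at 53.0. Right, log2 change of the ratio of 18 pairs of cluster neighbours, rtTA +dox over rtTA -dox (y axis), against the difference in G content within the pair (x axis, percentage points), with miR-143/miR-145 as a star at 0.57.

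The miR-145 hairpin gave a larger share of passenger strand than most hairpins. miR-145* held 27.0% of the counts of both strands in rtTA +dox cells (95% interval 26.3% to 27.6%, Clopper-Pearson), 25.8% in rtTA -dox cells (25.3% to 26.4%), 32.1% in no rtTA +dox cells (31.5% to 32.7%) and 23.6% in no rtTA -dox cells (23.0% to 24.2%). The library with dox and without rtTA had the largest share and the untreated library without rtTA the smallest. Over 125 hairpins the rarer strand had a median share of 4.44%, 5.13%, 5.30% and 4.68% in the same libraries, and between 15 and 27 hairpins had a larger share than miR-145. The log2 odds ratio of miR-145* was 0.08 with dox in rtTA cells (0.02 to 0.14) and 0.62 with dox without rtTA (0.55 to 0.68), where 40 of the other hairpins were at least as far from 0. It was 0.18 with rtTA without dox (0.11 to 0.24) and -0.36 with rtTA under dox (-0.42 to -0.30). Between the rtTA libraries both strands of the hairpin thus differed by nearly the same factor, and without rtTA the dox library held relatively more of the passenger strand. The G contents of the strands are close, 17.4% for miR-145 and 18.2% for miR-145*. Their C contents (34.8% and 18.2%) and T contents (30.4% and 40.9%) are not. Subtracting the trend on G, C and A left log2 ratios of 0.15 (miR-145) and 0.53 (miR-145*) with dox without rtTA. In the same order they were -0.20 and 0.04 with dox in rtTA cells. Under dox the rtTA ratios were -0.12 and -0.21, and without dox 0.24 and 0.27. The part of base composition in the shares was not tested.

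**Figure D5:**
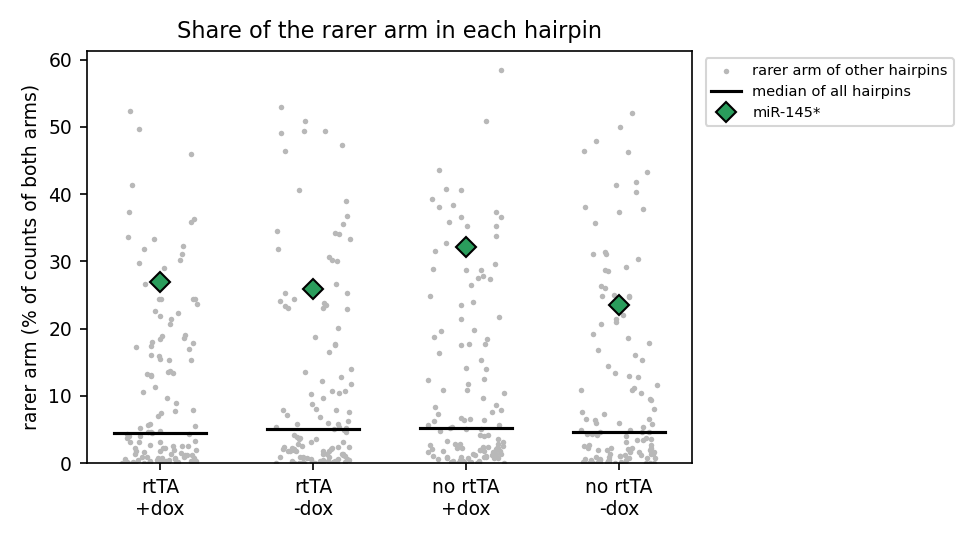
Share of the rarer strand in the counts of both strands (y axis, percent) for 125 hairpins in the 4 libraries (x axis), with the median as a line and miR-145* with its 95% interval. miR-145* lies between 23.6% and 32.1%, well above the medians.

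Likeness of pattern was measured as the root mean square difference of log2 CPM over the 4 libraries, after each microRNA was centred on its own mean. miR-145 stood 0.23 from miR-143, at place 122 of 371 and nearer than the median difference of 0.29. Nearest to miR-143 were miR-181a-1* (0.03), miR-30e (0.04), miR-130a (0.05), miR-126-3p (0.06) and let-7i (0.06), the first 5 sequences shown above. Their G content ran from 18.2% to 36.4%. miR-126-3p, an endothelial microRNA, had 111 CPM in rtTA +dox, 102 CPM in rtTA -dox, 120 CPM in no rtTA +dox and 91.4 CPM in no rtTA -dox cells, the same split by dox as miR-143 at a far lower level. miR-126-5p, the other row of the endothelial list, did not share it. It was called lower with dox in rtTA cells (log2 ratio -1.18) and with rtTA under dox (-1.95), while its ratio with dox without rtTA was 0.96. Nearest to miR-145 were miR-192 (0.04), miR-29a (0.06), miR-19a (0.06), miR-33* (0.07) and let-7g* (0.07), whose G content ran from 13.6% to 22.7%. miR-29a, which targets collagen transcripts, had 32462 CPM in rtTA +dox, 44352 CPM in rtTA -dox, 44752 CPM in no rtTA +dox and 37100.2 CPM in no rtTA -dox cells, and was lowest in the induced library as miR-145 was. miR-126-3p and miR-29a were picked for likeness over these same libraries, so the shared orders follow largely from the choice.

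Other microRNAs of the smooth muscle and fibroblast programme were read from 4 lists, which describe these libraries and carry no test. miR-1 and miR-133a, which serum response factor and myocardin also drive, were present in traces. miR-1 had 7.86 CPM in rtTA +dox, 16.6 CPM in rtTA -dox, 7.65 CPM in no rtTA +dox and 7.995 CPM in no rtTA -dox cells. It was called lower with dox in rtTA cells (log2 ratio -1.08), as were 8.6% of all microRNAs. It was called higher with rtTA without dox (1.06), as were 0.538%. Both calls rest on the same rtTA -dox library and are not separate results. miR-133a stood between 3.67 and 9.004 CPM and was not called. The levels of these muscle microRNAs thus lay far under those of miR-143 and miR-145, and miR-133b did not pass the floor.

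A list tied to the proliferative smooth muscle state held 7 rows past the floor, of miR-221, miR-222, miR-24, miR-31, miR-26a and miR-146a. With dox in rtTA cells none was called, against 1.34% higher and 8.6% lower over all 372 microRNAs. The median log2 ratio was -0.11, against -0.06 over all, and 1 of the 7 lay above 0. With rtTA under dox 1 of the 7 was called, miR-31* as lower (-1.17), a share near the 14.2% called lower over all microRNAs. The median was 0.21, against -0.07 over all. miR-221, which represses the cell cycle inhibitor p27, had 3007 CPM in rtTA +dox, 3763 CPM in rtTA -dox, 3502 CPM in no rtTA +dox and 2694 CPM in no rtTA -dox cells. Its highest level was in the library where miR-145 was also highest.

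A list of microRNAs that respond to TGF-beta or BMP signals, which drive contractile and matrix genes in these cells, held 11 rows past the floor. With dox in rtTA cells 0 of 11 were called, against 1.34% higher and 8.6% lower over all microRNAs (median log2 ratio -0.10, against -0.06 over all). With dox without rtTA 1 of 11 was called, miR-29a* as higher (median 0.16, against -0.04 over all microRNAs, of which 0.806% were called higher). With rtTA without dox 0 of 11 were called, against 0.538% higher and 1.34% lower over all microRNAs (median -0.04, against -0.07 over all). With rtTA under dox 2 of 11 were called, miR-29a* (-1.21) and miR-29c (-1.02), both lower (median -0.33, against -0.07 over all). That share is near the 14.2% called lower over all microRNAs. Of the mesenchymal list 0 of 14 rows were called in any of the 4 comparisons, in which 0.538% to 2.42% of all microRNAs were called higher and 0.806% to 14.2% lower. Its medians were 0.03 (dox in rtTA cells), -0.02 (dox without rtTA), -0.22 (rtTA without dox) and -0.16 (rtTA with dox). With rtTA without dox 2 of the 14 lay above 0. Over all 372 microRNAs the median was then -0.07 and the upper quartile 0.17. The 3 rows named miR-143 or miR-145 all lay above 0, but they stem from the same primary transcript and are not independent. miR-143 (0.15) and miR-145 (0.16) lay under that quartile and miR-145* (0.34) above it. As far from equality as these rows, in that order, were 256, 246 and 122 other microRNAs.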

How the data were processed

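The values the authors deposited are raw read counts, 1 whole number per microRNA and library and 1 for the luciferase shRNA; the file headers give only the library title. The sources used here give no aligner, mismatch rule, treatment of shared reads, microRNA database or build. Per the labels' protocols, RNA was extracted with Trizol and phenol. MicroRNAs missing from a library's list were set to 0. CPM were computed on endogenous counts. Log2 ratios have exact conditional binomial 95% intervals; differences of dox ratios have delta-method intervals (0.5 added per count), and the intervals of odds ratios and of changes in pair ratios are delta-method ones too. Trends on base composition are least-squares lines over the 372 microRNAs, subtracted around their mean. No molecular identifiers are named, so reads after PCR may not be independent molecules, and intervals and floors cover counting error only. A count of 0 would allow up to 0.342 to 0.470 CPM (3 counts).

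R 4.3.3, edgeR 4.0.16, DESeq2 1.42.0, Python 3.11.15 and SciPy 1.17.1 were used. The ratio intervals and the edgeR fit were tested on simulated counts. Named are the 3 rows of the cluster, the members of the lists and pairs, and the 5 nearest patterns of each guide strand. Members and lists were chosen with earlier results of these data known, and the sequences shown come from the files and match RefSeq. Alternatives covered scaling, floor, fold, base composition and passenger strands.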

Additional observations from a re-analysis of the deposited data

Results flagged for a closer look

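The dox log2 ratio of miR-145 differed by -0.56 between cells with and without rtTA (-0.45 with rtTA, 0.12 without). For miR-145* the difference was -1.10 (-0.36 with rtTA, 0.73 without). Both were singled out because the ratios pointed opposite ways in the 2 genotypes, and each counting interval excluded 0. Differences of this size were not rare. At least as far from 0 as miR-145 were 171 other microRNAs (46.1%), and as far as miR-145* 55 (14.8%). With 1 library per group the differences were not tested against replicate spread. With the G trend subtracted the difference was -0.16 for miR-145 and -0.73 for miR-145*. With a trend on G, C and A together it was -0.36 for miR-145 and -0.48 for miR-145*. The ratio of miR-145* with rtTA was then 0.042, with a counting interval that included 0 (-0.010 to 0.094), and 0.53 without rtTA.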

How the results depend on the processing

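The limits are those of 4 unreplicated libraries, in which depth (4293 to 761747 counts per row) leaves little counting error and replicate spread is unknown. Leaving out a replicate was not an option. No paired analysis was possible because each group has 1 library and the labels carry no replicate numbers. Of the recomputed values of the cluster 9 changed sign and 2 crossed the 2-fold threshold, all given next, and the others kept both. For rtTA with dox, scaling by TMM shifted all log2 ratios by 0.101 and DESeq2 by 0.104, and the other comparisons moved by less.

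The miR-143 ratio of dox in rtTA cells was -0.012 with the G trend subtracted. The miR-143 ratio of rtTA with dox was -0.013 with the shRNA in the total, -0.15 with the G trend subtracted and -0.14 with a trend on G, C and A together, which was added after seeing the data. The miR-145 ratio of rtTA with dox was 0.0025 with the G trend subtracted, with a counting interval that included 0 (-0.031 to 0.036). With the trend on G, C and A the miR-145* ratio of dox in rtTA cells was 0.042, and its counting interval also included 0 (-0.010 to 0.094). The difference of dox ratios of miR-145* was -0.73 (G) and -0.48 (G, C and A), under 2-fold. The change of miR-143 to miR-145 with dox without rtTA was -0.031 with both miR-145 strands summed, and with rtTA under dox it was -0.15 (G) and -0.023 (G, C and A).

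Of all 372 microRNAs, 5 were called higher and 32 lower with dox in rtTA cells, 3 and 3 with dox without rtTA, 2 and 5 with rtTA without dox, and 9 and 53 with rtTA under dox. At 1.5-fold these counts were 41 and 66, 28 and 29, 9 and 26, and 51 and 90. With the G trend subtracted 2 were higher and 7 lower with dox in rtTA cells, 5 lower with dox without rtTA and 24 lower with rtTA under dox. Without star names 21 were lower with dox in rtTA cells, 0 higher with dox without rtTA and 1 higher with rtTA without dox. With no floor 5 were higher and 6 lower with dox without rtTA and 7 higher with rtTA without dox, and with a floor of 5 counts 6 lower and 7 higher in those comparisons. Apart from the settings' own construction, the cause was not tested.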
